A study of Homo sapiens with 6 samples.

Results

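The Hippo pathway and the genes that its end points YAP1 and WWTR1 (also called TAZ) switch on were examined in T24 cells. T24 is a cell line from a human bladder carcinoma, here carrying either a vector alone or an active form of RhoC. The set holds 34 genes chosen by name: 20 pathway parts (2 effectors, 4 TEAD factors, 7 genes of the kinase cassette and 7 regulators) and 14 target genes. The choice was made with earlier results of these data known. All 34 were found among the 58233 rows with an Ensembl gene identifier, and all 34 passed the minimum level for testing. One group carried the vector alone (VEC, n = 3 libraries), the other RhoC with the Q63E change, which holds this GTPase in its active state (n = 3). Both were made by stable lentiviral delivery followed by puromycin, so the controls share virus and selection. The labels do not say whether a line was 1 clone or a pool, or whether libraries of a group came from separate cultures, so every p here reflects variation among these 6 libraries alone, and that variation may be technical. Values with ± are the mean and SD of 3 libraries (n = 3).

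Hippo signalling is a kinase chain that restrains growth. The kinases STK3 and STK4 (MST2 and MST1), with the scaffold SAV1, activate LATS1 and LATS2, which work with MOB1A or MOB1B and phosphorylate YAP1 and WWTR1, holding them in the cytoplasm. Unphosphorylated YAP1 and WWTR1 enter the nucleus, bind TEAD transcription factors and raise target genes such as CCN1 and CCN2. Actin tension is known to favour nuclear YAP1, a step that transcript levels do not show. Values here are taken from their form to be FPKM, fragments scaled to transcript length and library size, a per-length scale on which levels of different genes can be set side by side.

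The DNA letters at issue are those that TEAD factors recognise, GGAATG or the complement CATTCC on the other strand. RefSeq promoter windows (GRCh38.p14, 250 bases before to 50 after the start RefSeq gives) were matched for 26 of the 34 genes. In 6 of the 26 (WWTR1, LATS1, AMOTL1, VGLL4, CCDC80 and RBMS3) that start lay more than 1000 bases inside the gene as GENCODE 29 draws it, so other starts of these genes were not searched. No window was matched for TEAD1, TEAD4, STK3, CCN1, ASAP1, CRIM1, GADD45A or DOCK5. Of the 26 windows 7 held the TEAD letters, 4 of 9 among targets and 3 of 17 among pathway parts, against 14.0% of all 27305 windows. The AP-1 letters TGANTCA, which read the same on both strands, were in 2 of 26 (ANKRD1 and MOB1B) and in 7.76% of all windows. CCN2 is printed here because it holds the most matches and its transcript rose, with the 250 bases before its start in lower case and the TEAD letters in capitals (chr6:131951373-131951622, minus strand, upstream of the gene, 5′ to 3′ along it).
CCN2: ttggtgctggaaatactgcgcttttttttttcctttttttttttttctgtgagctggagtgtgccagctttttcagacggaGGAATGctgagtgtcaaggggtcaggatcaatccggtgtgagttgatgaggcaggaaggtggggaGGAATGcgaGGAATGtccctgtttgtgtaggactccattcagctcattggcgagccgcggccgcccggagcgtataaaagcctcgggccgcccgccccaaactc

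The CCN2 matches begin 169, 104 and 95 bases before the start. Stretches of 30 bases around a match, with the TEAD letters in capitals, are shown for 5 further genes for contrast, since of these only YAP1 passed the test described below. Each runs 5′ to 3′ along its gene: ANKRD1 at chr10:90921290-90921319 (minus strand, match 220 bases before the start), YAP1 at chr11:102110273-102110302 (plus, 162), FOXF2 at chr6:1389368-1389397 (plus, 196), PTPN14 at chr1:214551785-214551814 (minus, 200) and NUAK2 at chr1:205321925-205321954 (minus, 197). ANKRD1 and NUAK2 each held a second match nearer the start, at 128 and 18 bases, inside the gene as GENCODE 29 draws it. The PTPN14 stretch also lies inside the GENCODE gene, whose start is 847 bases further upstream than the RefSeq one. In LATS2 the match lay after the start.
ANKRD1: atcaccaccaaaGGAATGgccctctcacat
YAP1: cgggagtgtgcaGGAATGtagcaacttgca
FOXF2: gaggccgcgagaGGAATGaagagcgaggag
PTPN14: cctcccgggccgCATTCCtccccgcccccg
NUAK2: tcccctagtcccCATTCCtggtgggcgggt

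Libraries had summed values of 726929 to 769026, and their depth in reads is unknown. RHOC itself was at 232, 218 and 232 in VEC and at 1770.1, 1726 and 1744 in Q63E, so each library was on the side its label gives. VEC cells thus held RHOC transcript of their own, and the active state of RhoC was not measured. No group carried added RhoC without the Q63E change, so a higher RHOC level and that change cannot be told apart. Epithelial keratins KRT7, KRT8 and KRT18 were abundant, with the 6 epithelial markers summing to 2116 to 2154 in VEC and 3350 to 3454 in Q63E. Of these 6, KRT19 went from 5.67 ± 0.393 in VEC to 161 ± 1.85 in Q63E, and EPCAM from 0.313 ± 0.0404 to 1.52 ± 0.202. CDH1 (E-cadherin) and the uroplakin UPK3A were listed at 0 in all libraries, and the 7 urothelial markers summed to 13.4 to 17.0 and 21.5 to 22.4, mostly from PPARG (13.2 ± 0.619 and 21.3 ± 0.250), while GATA3 was at 1.79 ± 1.40 and 0.363 ± 0.352. The 6 fibroblast markers summed to 1.77 to 2.16 in VEC and 2.16 to 3.33 in Q63E and the 4 endothelial markers to at most 0.24, with PDGFRA at or under 0.05 in every library. The 6 leukocyte markers summed to 17.9 to 19.9 in VEC and 9.77 to 11.4 in Q63E, almost wholly from CD68 (a lysosomal protein), while PTPRC and CD3E were listed at 0. The epithelial, urothelial and leukocyte sums thus differed between the groups, and their part in the results was not tested. In bulk RNA fewer cells of a type and less RNA per cell cannot be told apart.

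The test was limma on log2(FPKM + 1) over all 13346 genes with a mean of at least 1, two-sided, with Benjamini-Hochberg adjustment over all of them and a threshold of 0.05. In that fit 3383 genes (25.3%) passed, 1510 (11.3%) higher and 1873 (14.0%) lower in Q63E. Of the 34 genes 14 passed (41.2%), 11 higher and 3 lower. Because the set was chosen with earlier results of these data known, its share beside that of all genes is a description only. Pathway parts had 5 higher and 2 lower of 20 and targets 6 higher and 1 lower of 14, or 35% and 50% called. LATS2, AMOTL2, PTPN14 and AJUBA are also known as targets, and counting these 4 there turned the order, with 43.8% of 16 pathway parts and 38.9% of 18 targets called. The median log2 fold change was 0.08 for pathway parts and 0.10 for targets, beside −0.002 for all genes tested. None of the 34 reached 2-fold: the ratio of group means ran from 0.71 for MOB1B to 1.60 for CCN1. In 19 of the 34 the groups did not overlap, against 43.9% of all genes tested. Q63E lay wholly above VEC in 12 (21.1% of all genes) and wholly below in 7 (22.8%), and all 14 that passed were among the 19. The share of members wholly below was thus near that of all genes. Fold changes on this log2 scale understate the change of low genes.

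**Figure D1:**
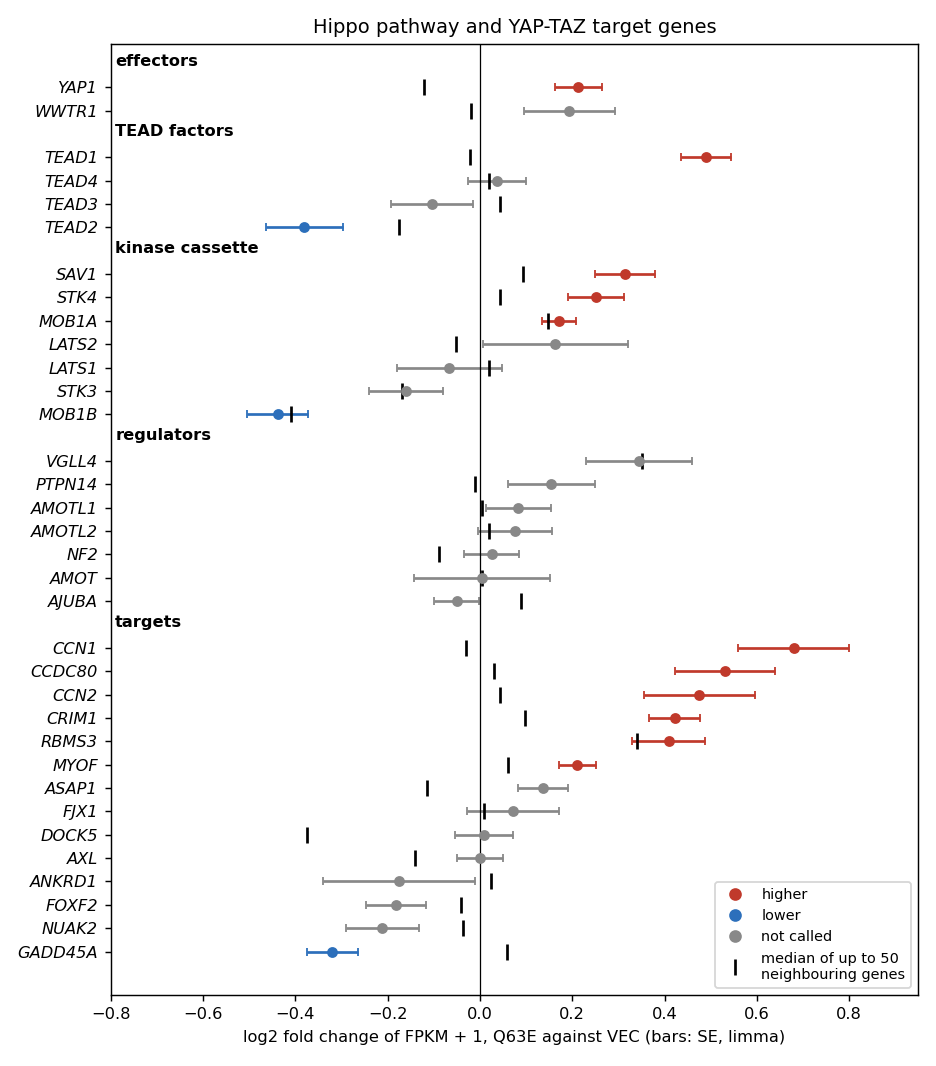
Log2 fold change of FPKM + 1 in Q63E against VEC (x axis) for the 34 genes by role, with the limma SE as bars; red and blue points passed the test (11 higher, 3 lower), and black ticks give the median change of up to 50 neighbouring genes. The 7 regulators hold no coloured point (25.3% of all genes tested passed), and MOB1B, RBMS3, MOB1A and VGLL4 lie close to their ticks.

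**Figure D2:**
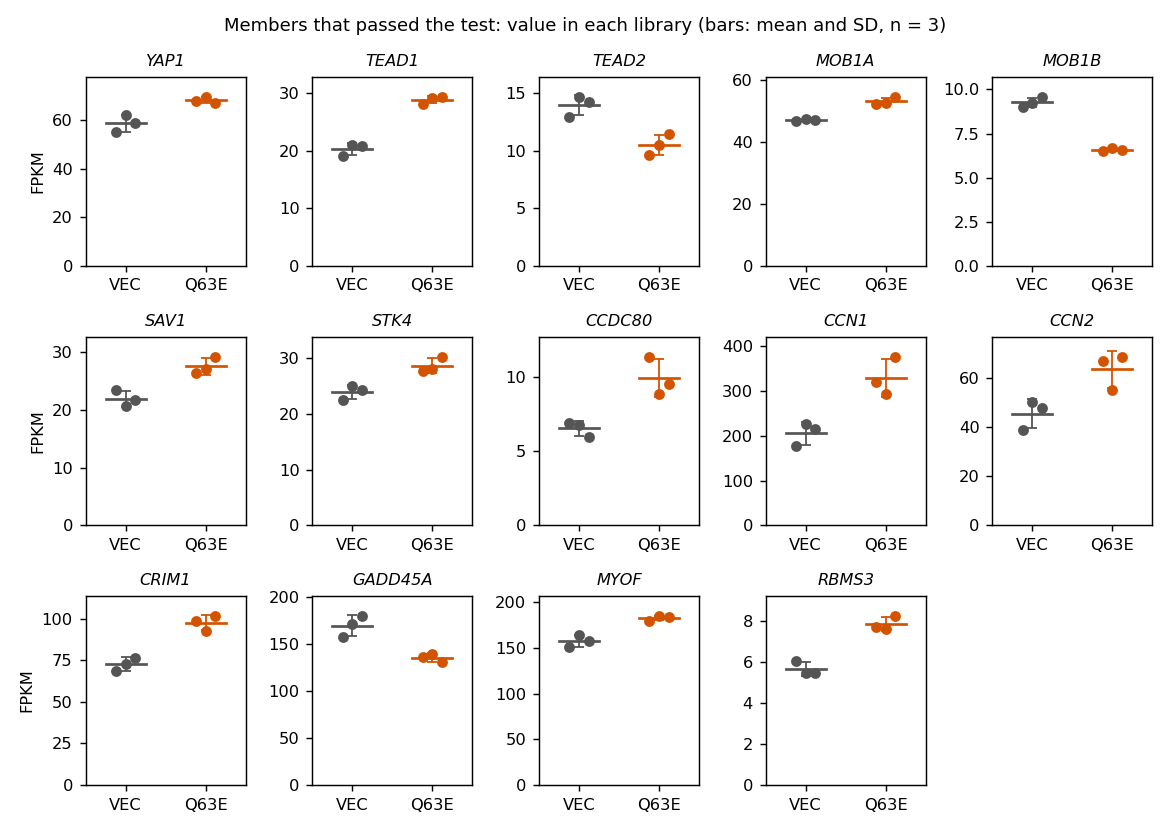
FPKM in each library (points; y axis from 0) for the 14 genes that passed, with the group mean and SD (n = 3). In each panel the 3 Q63E libraries lie wholly on one side of the 3 VEC libraries; TEAD2, MOB1B and GADD45A are the panels where Q63E lies lower.

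Among target genes 6 rose and 1 fell of 14, against 11.3% higher and 14.0% lower among all genes tested. CCN1 (CYR61), a matricellular protein that binds integrins, was at 177, 226 and 214 in VEC and 321, 293 and 376 in Q63E. The highest VEC library lay below the lowest Q63E library, and Q63E replicate 2 was the lowest of its group. CCN1 had a log2 fold change of 0.68 (SE 0.120, adjusted p = 0.00858 in limma), the largest of the 34, and it was the most abundant of them in both groups. The gene (ENSG00000142871) lies on chromosome 1 from 85580761 to 85583962 on the plus strand of GRCh38.

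CCN2 (CTGF, connective tissue growth factor), whose upstream bases are printed above, was at 38.81, 50.04 and 47.65 in VEC and 67.12, 55.02 and 68.60 in Q63E. The groups did not overlap, but VEC replicate 2 and Q63E replicate 2 were close. Its log2 fold change was 0.48 (SE 0.121, adjusted p = 0.0312 in limma), and it no longer passed without VEC replicate 1 or 3 or Q63E replicate 1 or 3 (adjusted p up to 0.0949). CCN1 made up 81.9% ± 0.106 of the summed CCN1 and CCN2 level in VEC and 83.8% ± 0.996 in Q63E, while the sum went from 251 ± 31.6 to 393 ± 48.5.

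CRIM1, a membrane protein with cysteine-rich repeats that binds bone morphogenetic proteins, was at 68.5, 72.9 and 76.5 in VEC and 98.8, 92.8 and 101 in Q63E. Its groups lay well apart, with a log2 fold change of 0.42 (SE 0.055, adjusted p = 0.00279). CCDC80, an extracellular matrix protein, was far lower in level, at 6.87, 6.75 and 5.92 in VEC and 11.3, 8.85 and 9.47 in Q63E. It rose by 0.53 on the log2 scale (SE 0.108, adjusted p = 0.0149 in limma). CRIM1 (ENSG00000150938) lies on chromosome 2 from 36355926 to 36551135 and CCDC80 (ENSG00000091986) on chromosome 3 from 112596794 to 112649530.

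MYOF (myoferlin, a membrane repair and trafficking protein) was at 151, 164 and 158 in VEC and 179.95, 184 and 184 in Q63E, a ratio of 1.16 with an adjusted p of 0.0118. RBMS3, an RNA-binding protein, was at 6.05, 5.47 and 5.48 in VEC and 7.72, 7.60 and 8.23 in Q63E, with a log2 fold change of 0.41 (SE 0.079, adjusted p = 0.0123). Both rises were clear of the spread between libraries, though RBMS3 lies where its chromosomal neighbours rose too. Neither gene passed with the neighbours' median subtracted, as given further on.

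One target fell. GADD45A, a stress-induced growth arrest protein that is also controlled by p53, was at 158, 172 and 179.6 in VEC and 137, 139.9 and 131 in Q63E. Its 3 Q63E libraries were the tighter group, and the log2 fold change was −0.32 (SE 0.055, adjusted p = 0.00797 in limma). It was the second most abundant of the 34 genes in VEC and the third in Q63E, behind MYOF. GADD45A (ENSG00000116717) lies on chromosome 1 from 67685061 to 67688338 on the plus strand.

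The other 7 targets did not pass. ANKRD1, a nuclear ankyrin repeat protein whose window holds 2 TEAD matches, was the lowest of the 34, at 1.40, 1.63 and 1.45 in VEC and 1.51, 1.24 and 0.91 in Q63E, and its groups overlapped (log2 fold change −0.18, SE 0.165, adjusted p = 0.478). AXL, a receptor tyrosine kinase, was abundant and nearly level, at 112, 125 and 115 in VEC and 120.1, 114 and 118 in Q63E (log2 fold change −0.0005, SE 0.049, adjusted p = 0.996). FOXF2, a forkhead transcription factor, and NUAK2, a kinase related to AMPK, had all Q63E libraries below all VEC libraries without passing (log2 fold changes −0.18 and −0.21, adjusted p = 0.0888 and 0.0973). The Arf GTPase-activating protein gene ASAP1 (0.14, adjusted p = 0.12), FJX1, related to the fly gene four-jointed (0.07, adjusted p = 0.644), and the guanine exchange factor gene DOCK5 (0.01, adjusted p = 0.933) had overlapping groups.

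Q63E replicate 2 had the lowest value of its group for 11 of the 14 targets, and for 4 of the 20 pathway parts. Q63E replicate 1 was the lowest for 12 of the 20 pathway parts and for 1 of the 14 targets. VEC replicate 1 was the lowest of its group for 11 of 14 targets and 12 of 20 pathway parts. The same counts were not taken over all genes tested, so they only describe these genes in these libraries. The median of the targets' differences from the VEC mean was 0.18 in Q63E replicate 1, −0.008 in replicate 2 and 0.19 in replicate 3. Without Q63E replicate 2 the targets' median log2 fold change was 0.19 in place of 0.10, without Q63E replicate 1 it was 0.06 and without Q63E replicate 3 also 0.06.

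The effector YAP1, a transcription coactivator, was at 55.2, 62.05 and 58.5 in VEC and 67.9, 69.3 and 66.9 in Q63E. The groups did not overlap, and the ratio of 1.16 passed the test (log2 fold change 0.21, SE 0.051, adjusted p = 0.0250 in limma). The call was lost when any 1 library other than VEC replicate 2 was left out (adjusted p up to 0.0754). WWTR1, the paralog of YAP1, was at 27.0, 30.4 and 31.5 in VEC and 35.2, 29.7 and 37.3 in Q63E, where Q63E replicate 2 fell within the VEC range, and did not pass (log2 fold change 0.19, SE 0.098, adjusted p = 0.2002). YAP1 made up 66.5% ± 1.25 of the summed level of both in VEC and 66.7% ± 2.97 in Q63E, a difference smaller than the spread between libraries.

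The 4 TEAD factors, which bring YAP1 and WWTR1 to DNA, did not move together. TEAD1 was at 19.1, 21.0 and 20.8 in VEC and 28.1, 29.1 and 29.2 in Q63E. The groups lay far apart, with the smallest adjusted p of the 34 (log2 fold change 0.49, SE 0.054, adjusted p = 0.00151 in limma). TEAD2 went the other way, from 12.9, 14.6 and 14.2 to 9.59, 10.4 and 11.4, with no overlap (log2 fold change −0.38, SE 0.084, adjusted p = 0.0192), and lost the call without VEC replicate 2 or 3 or Q63E replicate 1 or 2. TEAD1 (ENSG00000187079) lies on chromosome 11 from 12674591 to 12944483 and TEAD2 (ENSG00000074219) on chromosome 19 from 49340595 to 49362457.

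TEAD4 was the most abundant TEAD gene at 45.2, 46.5 and 44.9 in VEC and 49.4, 42.7 and 48.5 in Q63E, and its groups overlapped (log2 fold change 0.04, SE 0.062). TEAD3 was at 10.35, 12.51 and 10.18 in VEC and at 10.15, 10.09 and 10.16 in Q63E, all just below the VEC range (log2 fold change −0.10, adjusted p = 0.433). The summed level of the 4 genes was 90.7 ± 3.59 in VEC and 96.3 ± 3.60 in Q63E, with overlapping libraries. Within that sum TEAD1 went from 22.3% ± 0.645 to 30.0% ± 1.36 and TEAD2 from 15.4% ± 0.531 to 10.9% ± 0.896, while TEAD4 held 50.2% ± 1.27 and 48.6% ± 2.28. In VEC TEAD1 was thus second to TEAD4, and TEAD2 and TEAD3 followed.

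**Figure D3:**
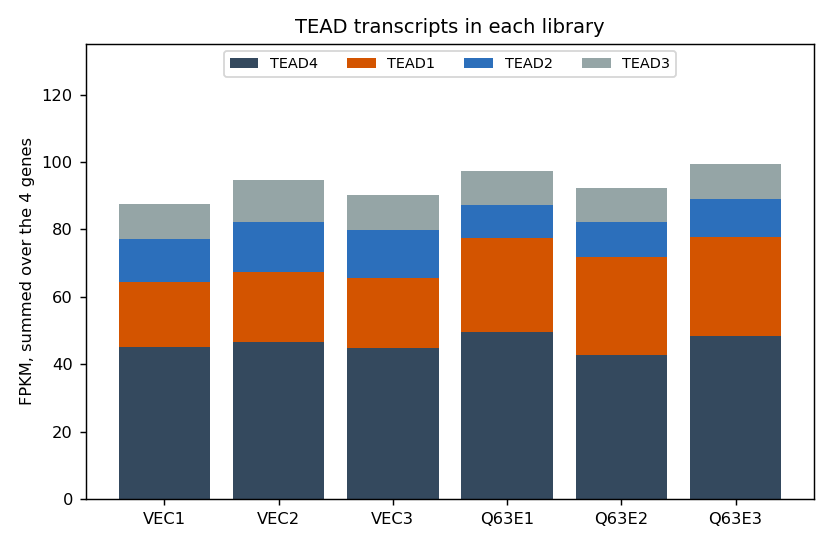
FPKM of TEAD1 to TEAD4 stacked in each of the 6 libraries (y axis from 0). TEAD4 forms the base of every bar at 42.7 to 49.4, and the TEAD1 segment is at 19.1 to 21.0 in VEC and 28.1 to 29.2 in Q63E.

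In the kinase cassette 3 genes rose and 1 fell of 7, against 11.3% higher and 14.0% lower among all genes tested. With 7 genes this count is a description only. STK4 was at 22.53, 24.97 and 24.26 in VEC and 27.7, 28.1 and 30.2 in Q63E (log2 fold change 0.25, SE 0.060, adjusted p = 0.0253), and SAV1 at 23.4, 20.7 and 21.6 in VEC and 26.3, 27.0 and 29.1 in Q63E (0.31, SE 0.066, adjusted p = 0.0162). Both were higher in every Q63E library than in any VEC library. The STK4 call held only without VEC replicate 2 when 1 library was left out (adjusted p up to 0.0758 otherwise), and SAV1 lost it without VEC replicate 3 or Q63E replicate 3 (adjusted p up to 0.0542). SAV1 shares 840 exonic bases with ATL1 on the other strand, which was at 2.06 in VEC and 4.31 in Q63E, and reads of the overlap cannot be told apart without strand.

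The coactivators of LATS kinases moved in opposite directions. MOB1A was at 47.0, 47.4 and 47.0 in VEC and 52.4, 52.8 and 54.5 in Q63E (log2 fold change 0.17, SE 0.037, adjusted p = 0.0170), a call lost without VEC replicate 3 or Q63E replicate 3. MOB1B was at 9.03, 9.24 and 9.55 in VEC and 6.52, 6.66 and 6.56 in Q63E (−0.44, SE 0.066, adjusted p = 0.00474). MOB1A made up 83.6% ± 0.390 of both in VEC and 89.0% ± 0.237 in Q63E, and the sum was 56.4 ± 0.341 and 59.8 ± 1.13. MOB1B shares 199 exonic bases with DCK on the same strand, which was at 27.0 in VEC and 16.8 in Q63E.

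The other kinases did not pass. STK3 was at 12.96, 12.24 and 14.27 in VEC and 10.84, 12.22 and 11.92 in Q63E (log2 fold change −0.16, adjusted p = 0.195). All its Q63E libraries lay below all VEC libraries, though by a very narrow margin. The LATS kinases were among the low genes, LATS2 at 10.1 ± 1.67 and 11.4 ± 2.06 and LATS1 at 4.77 ± 0.538 and 4.51 ± 0.450, and their groups overlapped (adjusted p = 0.488 and 0.708). STK4 made up 64.5% ± 2.26 of the summed STK3 and STK4 level in VEC and 71.1% ± 1.20 in Q63E.

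None of the 7 regulators passed in limma (0 higher and 0 lower), against 25.3% of all genes tested, and 1 had an unadjusted p under 0.05. The groups overlapped in 6 of the 7, while 43.9% of all genes tested had no overlap. With 7 genes these counts are a description only. NF2 (merlin, an upstream activator of LATS kinases) was at 33.5, 37.6 and 35.6 in VEC and 34.9, 38.3 and 35.5 in Q63E. The angiomotins, which hold YAP1 at junctions, had log2 fold changes of 0.00 (AMOT, SE 0.147), 0.08 (AMOTL1, SE 0.070) and 0.08 (AMOTL2, SE 0.080). AMOTL2 was the most abundant of the 7 at 59.5 ± 6.43 in VEC. The phosphatase PTPN14, which binds YAP1, had 0.16 (adjusted p = 0.279, and 0.0327 without VEC replicate 2), and AJUBA, a LIM protein that inhibits LATS, −0.05 (adjusted p = 0.497).

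VGLL4, which competes with YAP1 for TEAD factors, had no overlap between groups, at 14.0, 16.7 and 16.1 in VEC and 23.3, 19.7 and 17.6 in Q63E. Its spread in Q63E was wide, and it did not pass (log2 fold change 0.34, SE 0.115, adjusted p = 0.0734). It shares 1596 exonic bases with ATG7 on the other strand, which was at 17.4 in VEC and 26.6 in Q63E.

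The median change of up to 25 tested genes on each side was taken as a measure of each gene's chromosomal neighbourhood, because around some members most genes moved the same way. MOB1B lies on chromosome 4 among 50 neighbours with a median log2 fold change of −0.41, 43 of them below 0. RBMS3 and VGLL4 lie on the short arm of chromosome 3, with neighbours at 0.34 (44 of 50 above 0) and 0.35 (45 of 50). MOB1A, on chromosome 2, had neighbours at 0.15 (38 of 50 above 0). With the neighbours' median subtracted in each library, MOB1B had −0.03 (adjusted p = 0.781), RBMS3 0.07 (0.625), VGLL4 −0.01 (0.975) and MOB1A 0.02 (0.704), so none of these 4 was called different from the genes around it.

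TEAD2 (neighbours at −0.18) then had −0.21 (adjusted p = 0.174), and STK4 (0.21, adjusted p = 0.0746), MYOF (0.15, 0.0670) and CCN2 (0.43, 0.0810) no longer passed either. The genes that passed after subtraction were CCN1 (0.71, adjusted p = 0.0101), TEAD1 (0.51, 0.00220), CCDC80 (0.50, 0.0272), YAP1 (0.33, 0.00712), CRIM1 (0.32, 0.0120), SAV1 (0.22, 0.04995) and GADD45A (−0.38, 0.00837). DOCK5, on chromosome 8 among neighbours at −0.37 (45 of 50 below 0), was level itself and stood 0.38 above them (adjusted p = 0.00644). ASAP1 had 0.25 after subtraction (adjusted p = 0.0370). In all 8 members were higher and 1 lower than their neighbours by this measure, and what shifts the neighbourhoods was not tested.

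**Figure D4:**
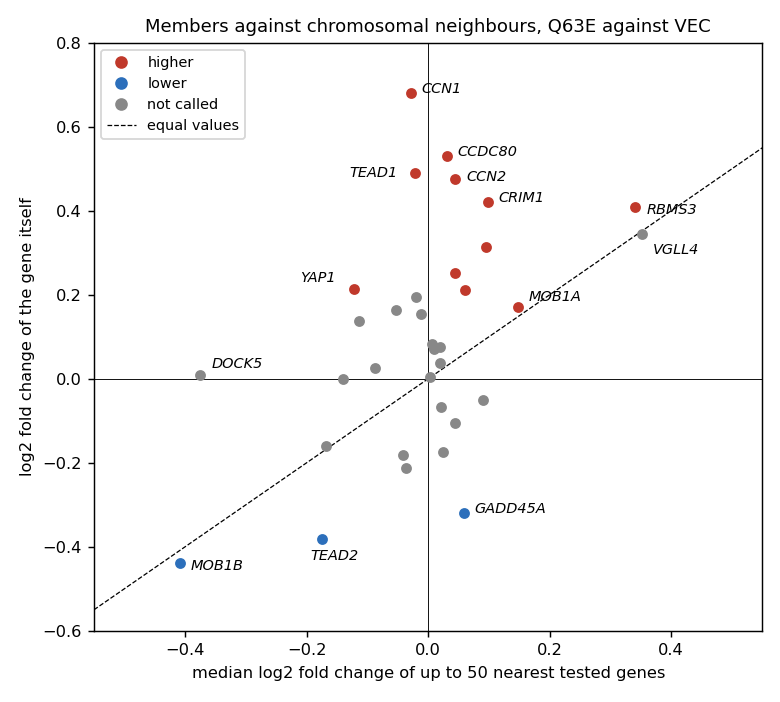
Log2 fold change of each of the 34 genes (y axis) against the median log2 fold change of its up to 50 nearest tested genes on the chromosome (x axis), colours as for the fold changes by role; the dashed line marks equal values. MOB1B, RBMS3, VGLL4 and MOB1A lie near the line, CCN1 (0.68 against −0.03) and TEAD1 (0.49 against −0.02) far above it, and DOCK5 at 0.01 against −0.37.

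A further list of 54 Hippo pathway genes outside the 34 had 45 tested genes and 9 below the minimum level. Of the tested genes 10 were higher and 7 lower (37.8% passed, against 25.3% of all genes tested), with a median log2 fold change of 0.08. This list too was chosen with earlier results of these data known, so the share is a description only. Of the 10 that passed as higher, LLGL2, VGLL3, PATJ and WWC1 had the largest log2 fold changes. LLGL2, a polarity protein, was at 0.78, 1.44 and 1.40 in VEC and 6.38, 4.48 and 8.04 in Q63E (log2 fold change 1.71, adjusted p = 0.00277). VGLL3, a TEAD cofactor, had 0.613 ± 0.106 in VEC and 1.96 ± 0.251 in Q63E (0.88). It met the minimum level only through its Q63E libraries, so its place among the 10 is partly set by that filter. PATJ, a scaffold of the Crumbs complex, was at 2.40, 2.43 and 4.66 in VEC and 5.74, 5.91 and 5.41 in Q63E (0.73, adjusted p = 0.0470, and 0.0760 with neighbours subtracted), with VEC replicate 3 nearest to Q63E. WWC1 (KIBRA), an upstream activator of LATS kinases, was at 27.4, 28.6 and 24.2 in VEC and 43.6, 40.8 and 47.5 in Q63E (0.70, adjusted p = 0.00186).

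Its relative WWC3 had 4.48 ± 1.02 in VEC and 1.65 ± 0.376 in Q63E, lower by the limma test (−1.04 on the log2 scale, adjusted p = 0.00825), so these 2 paralogs changed in opposite directions. CSNK1E, a casein kinase that phosphorylates YAP1 for degradation, fell from 234 ± 5.14 to 171 ± 10.6 (−0.46, adjusted p = 0.00156). Its neighbours on chromosome 22 were at −0.59, and after their subtraction it had 0.13 (adjusted p = 0.152). MAP4K4, a kinase that can act on LATS in parallel to STK3 and STK4, fell from 112 ± 2.81 to 90.8 ± 2.59 (−0.30, adjusted p = 0.00253), and SCRIB, a polarity scaffold, from 96.5 ± 2.75 to 80.6 ± 5.82 (−0.26, adjusted p = 0.0215, and 0.340 with neighbours subtracted).

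A list of 20 further YAP-TAZ target genes had 18 tested and 2 below the minimum level. Of the tested genes 8 were higher and 4 lower (66.7% passed, against 25.3% of all genes tested), with a median log2 fold change of 0.20. The list was chosen with earlier results of these data known, so its share describes these genes only and is no test of YAP-TAZ targets. The largest rises were those of IGFBP3, EDN1, F3 and TGM2. EDN1, the precursor of the vasoconstrictor endothelin 1, was at 2.92, 2.59 and 2.20 in VEC and 10.2, 9.67 and 11.7 in Q63E (1.69, adjusted p = 0.000294), and TGM2, a transglutaminase that crosslinks matrix proteins, went from 263 ± 4.07 to 444 ± 13.0 (0.75, adjusted p = 6.9e-05). IGFBP3, which binds insulin-like growth factors (1.72, adjusted p = 1.82e-05), and F3, tissue factor (1.55, 3.49e-06), had the smallest adjusted p of the list. The falls were those of the ectonucleotidase gene NT5E (−0.97, adjusted p = 0.000114), the focal adhesion genes TNS1 (−0.88, 0.00810) and TNS3 (−0.77, 0.000470), and LHFPL6 (−0.29, 0.0111). Target genes thus moved both ways in the longer list too, and each fold change named there was larger in size than that of CCN1 except the one of LHFPL6.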

How the data were processed

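RNA-seq was deposited as 1 table per library for 6 libraries, 3 per group, each with 58882 rows. The authors' deposited values are taken as FPKM from their form, since the file headers and labels name no unit. Per the submitters' processing notes HISAT2 2.1.0, Bowtie2 and build GRCh38.p10 were used, with roles not stated. The sources used here name no counting tool. The 649 rows without a gene identifier (0.274% to 0.511% of a library's sum) were left out. No whole-read steps were recovered (at best 27.2% to 29.1% of low values within 0.1 of a whole number, against 20% without steps), so depth is unknown and no counting interval is given.

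Values were taken as log2(FPKM + 1), genes with a mean of at least 1 were kept and groups were compared with limma 3.58.1 (moderated tests with a mean-variance trend, two-sided, threshold 0.05) under R 4.3.3. Positions came from GENCODE 29 on GRCh38 and promoters from RefSeq. The test was checked on simulated data. All 34 genes are named, with up to 4 higher and 4 lower genes of 2 further lists. Members and lists were chosen with earlier results of these data known. Alternatives, each run separately, were pseudocounts of 0.1 and 0.5, no filter, TPM scale, quantile normalization and a replicate block. The others, also separate, were subtraction of chromosomal neighbours, leaving out each library in turn, and counting 4 pathway parts as targets. Strand of counting is not stated, so overlapping genes may share reads. Protein sequences were not used here.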

Additional observations from a re-analysis of the deposited data

How the results depend on the processing

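TEAD1, CCN1, CRIM1, CCDC80 and GADD45A (5 of the 14 that passed) kept direction and call under all 13 refits, and the other 9 lost the call under at least 1. Of the 20 that did not pass, ASAP1, DOCK5 and PTPN14 passed under some refit. Pseudocounts of 0.1 and 0.5 left 11 members higher and 3 lower. Without a filter 10 were higher and CCN2 did not pass. Leaving out 1 library gave 6 to 12 members higher and 2 to 3 lower (6 higher without VEC replicate 3 and without Q63E replicate 3), medians of 0.052 to 0.13 for pathway parts and 0.060 to 0.19 for targets, 994 to 1153 genes higher and 1325 to 1477 lower in all; these fits have fewer samples.

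Labels number the libraries 1 to 3 in both groups. Same-numbered libraries deviated from their group means with correlations of −0.042, −0.009 and −0.025 over genes, so no shared deviation was seen. The labels do not say whether same-numbered libraries were handled together. With the number as a replicate block, 942 genes in all and 6 members were higher. On the TPM scale the median of pathway parts was 0.12, and of genes called 53.4% were higher (1822 higher, 1591 lower) in place of 44.6%; 11 members higher and 3 lower were called there too. With neighbours subtracted it was 0.040, 1 member was lower, and 1200 genes in all were lower; the cause was not tested.

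Among the 34 genes, directions turned for AXL, STK3, VGLL4, AMOT, DOCK5, NF2, AMOTL2, TEAD4 and LATS1, none of which passed in the reported fit or where it turned. AXL had 0.036 on the TPM scale, 0.031 with quantile normalization and 0.14 with neighbours subtracted. STK3 had 0.0083 and VGLL4 −0.0067 with neighbours subtracted. With 1 library left out, AXL ran from −0.031 to 0.044, AMOT from −0.11 to 0.14, DOCK5 from −0.031 to 0.045, NF2 from −0.016 to 0.065, AMOTL2 from −0.016 to 0.13, TEAD4 from −0.0013 to 0.10, and LATS1 from −0.13 to 0.0036. Depth is unknown, so no limit of detection could be set for ANKRD1 and other low genes.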

Other observations

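A pair of further Hippo pathway genes owed their mean to a single library, and both were chosen after their values were seen. FAT2, a giant protocadherin, was at 0.06, 0.02 and 0.03 in VEC and at 0.01, 0.03 and 12.8 in Q63E (adjusted p = 0.410 in limma). MAP4K1, a kinase best known from blood cells, was at 6.15, 0.14 and 0.11 in VEC and at 0.04, 0 and 0.31 in Q63E (adjusted p = 0.403). RASSF1, a scaffold that binds STK3 and STK4, was nearly level (30.3 ± 1.11 for VEC, 30.4 ± 0.444 for Q63E) on a stretch of chromosome 3 whose neighbours had a median log2 fold change of 0.33. With the neighbours' median subtracted it had −0.32 (adjusted p = 0.0104 in limma). RASSF1 too was chosen after its values were seen, so that p is descriptive.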
